A study of Mus musculus with 20 samples.

Results

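*Ubtf*, which encodes the upstream binding factor of RNA polymerase I, and 8 further genes of ribosomal RNA (rRNA) synthesis (*Polr1a*, *Polr1b*, *Rrn3*, *Ncl*, *Fbl*, *Nop56*, *Nop58* and *Nolc1*) were followed in mouse bone marrow. These 9 genes were taken by symbol from the 37620 genes of the count table, together with the 49 splice junctions of *Ubtf* from the 554616 in the junction table, and all 9 passed the filter on low counts in every comparison. The set was chosen by values of these mice, namely the inclusion of 1 *Ubtf* exon in the comparisons below. The *Ubtf* exon and gene level are therefore given as a description and not as a test, and *Ubtf* enters the tests below only in the counts of genes called.

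Bulk marrow RNA of 20 recipient mice was sequenced, 5 in each of 4 groups. Irradiated recipients carried donor marrow, pooled from several mice, in which doxycycline acts through rtTA to switch on a *U2AF1* transgene, either U2AF1(WT) or U2AF1(S34F), the form with a serine-to-phenylalanine change in the splicing factor that reads the AG at the end of introns. After engraftment of over 6 weeks, every mouse of all 4 groups was fed doxycycline chow (625 ppm) for 7 days, and for the last 5 days received either sudemycin D6, which binds the spliceosome protein SF3B1, or vehicle by vein. By the study's methods, donors and recipients were young adults of matched sex, mice of either sex were used, and the age of each mouse was not given. Cells of the recipient can remain in the marrow. Gene counts summed to between 41145892 and 62138138 per mouse and junction counts to between 34384214 and 64813149. All 10 U2AF1(WT) mice had 39145 to 78640 counts of *Xist* and 0 to 4 on Y-linked genes, against 1 to 8 and 10270 to 15034 in the 10 U2AF1(S34F) mice, so that the sex of the cells and the transgene cannot be told apart in any comparison of genotypes. The donor pools also differed between the genotypes and cannot be told apart from the transgene. Marrow markers were read in every group: 6 late neutrophil markers summed to at least 28152 CPM (gene counts scaled by TMM to one library size) and 8 erythroid markers to at least 256, and none of these genes was at 0 in any group.

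In the nucleolus, RNA polymerase I copies the tandem ribosomal DNA (rDNA) repeats into a long precursor. UBTF bends and opens the rDNA through a row of HMG boxes, RRN3 brings the polymerase, whose largest subunits are POLR1A and POLR1B, to the promoter, and small nucleolar ribonucleoproteins (snoRNPs) then modify and cut the precursor. Fast-growing marrow cells rely on this supply. UBTF is made in a longer form, UBTF1, which is the form active in rDNA transcription, and a shorter one, UBTF2, which lacks part of the second HMG box because an exon is skipped.

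*Ubtf* spans chr11:102165874-102181056 (mm9, minus strand). The cassette exon lies at chr11:102172240-102172350. It is exon 8 of 21, is coding, and its 111 bases keep the reading frame over 37 codons. Among the full-length coding transcripts of the annotation, 4 contain it with a coding length of 2292 bases and 4 lack it. The introns before and after it are short, at 343 and 349 bases, and its GC content is 55.9%. The exon is shown because the *Ubtf* values below turn on it, with the exon in capitals and 20 intron bases before and 10 after it in lower case (chr11:102172230-102172370).

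Ubtf cassette exon: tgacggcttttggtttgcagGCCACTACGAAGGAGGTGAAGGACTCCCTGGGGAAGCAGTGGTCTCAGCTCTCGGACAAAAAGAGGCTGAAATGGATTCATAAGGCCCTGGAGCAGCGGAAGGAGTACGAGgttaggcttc

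The 3′ splice sites of this exon (chr11:102172348-102172370) and of the next one (chr11:102171888-102171910), which compete for the same upstream exon, are set side by side. The base just before the AG is in capitals, because the study saw more T there before exons skipped more in U2AF1(S34F) cells. The lower-case bases after the AG belong to the exon.

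Cassette exon: tgacggcttttggtttgCaggcc
Next exon: tcccctacctccctctgCaggag

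Both sites carry C at that base. The tract before the cassette exon holds 11 pyrimidines in its last 20 intron bases and that before the next exon holds 16.

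More of the *Ubtf* transcripts contained the exon under sudemycin D6 and in U2AF1(S34F) marrow, and most where both were combined. Ψ, the fraction of transcripts that include the exon, was computed from junction reads with the inclusion reads divided over the 2 junctions they can fall on. In vehicle-treated U2AF1(WT) mice Ψ was 0.323, 0.431, 0.359, 0.397 and 0.378. In sudemycin-treated U2AF1(WT) mice it was 0.436, 0.491, 0.482, 0.440 and 0.444. All 5 treated mice were above all 5 vehicle-treated ones, with the nearest pair at 0.431 and 0.436. In vehicle-treated U2AF1(S34F) mice Ψ was 0.449, 0.409, 0.471, 0.480 and 0.449, overlapping both U2AF1(WT) groups. In sudemycin-treated U2AF1(S34F) mice it was 0.528, 0.484, 0.534, 0.541 and 0.522, above all vehicle-treated mice of either genotype. The exon was chosen by these values, and the share of all splicing events whose groups do not overlap is not given here. The separation is therefore a description only.

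**Figure D1:**
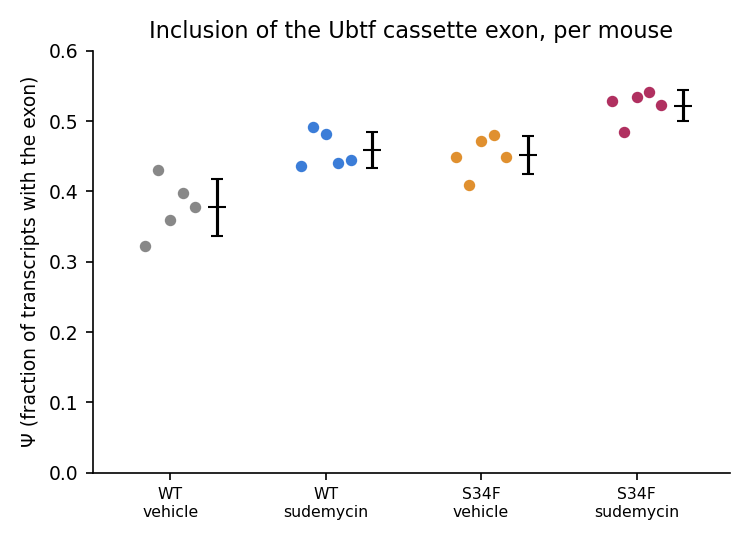
Ψ of the *Ubtf* cassette exon (y axis, fraction) in the 4 groups (x axis); points are mice, and the bar beside them is the mean ± SD of 5. Group means are 0.377, 0.459, 0.452 and 0.522 from left to right, and the highest group lies above every vehicle-treated mouse.

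In U2AF1(WT) mice, mean Ψ was 0.377 ± 0.0405 (SD, n = 5) with vehicle and 0.459 ± 0.0259 with the drug, a difference (ΔΨ) of 0.0813. It was 0.452 ± 0.0276 and 0.522 ± 0.0223 in vehicle- and sudemycin-treated U2AF1(S34F) mice, with ΔΨ of 0.0701 for the drug. Between genotypes ΔΨ was 0.0745 under vehicle and 0.0632 under sudemycin D6, and for mutation and drug together it was 0.145. Each Ψ rested on 581 to 1080 reads, and the 95% Wilson interval of a mouse, taken on the halved inclusion reads, reached 0.0347 to 0.0461 to either side, which covers counting error only.

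Within groups, Ψ was read beside the summed level of 8 pro-B and pre-B cell markers, a sign of marrow composition. In vehicle-treated U2AF1(S34F) mice 3, 1, 11, 5 and 7 the markers summed to 78.3, 35.5, 30.5, 21.8 and 9.21 CPM, and Ψ was 0.409, 0.449, 0.449, 0.471 and 0.480. The mouse with the most marker reads thus had the lowest Ψ and the one with the fewest the highest. In vehicle-treated U2AF1(WT) mice, mouse 2 had the lowest marker sum (27.4 CPM, against 57.5 to 66.5 in the other 4) and the highest Ψ (0.431). In sudemycin-treated U2AF1(WT) mice, mice 8 and 9 had marker sums of 14.8 and 9.76 CPM against 47.7 to 61.4 in the other 3, and Ψ of 0.491 and 0.482 against 0.436 to 0.444. With both left out, a step chosen after their values were seen, ΔΨ was 0.0627 for the drug in U2AF1(WT) mice and 0.0819 between genotypes under sudemycin D6. In sudemycin-treated U2AF1(S34F) mice the markers summed to 13.1 to 23.0 CPM, and mouse 10, with the highest sum, also had the highest Ψ (0.541). Mature B cell markers were also lowest of their group in vehicle-treated U2AF1(S34F) mouse 7 (5.66 CPM) and vehicle-treated U2AF1(WT) mouse 2 (16.5). The same held for sudemycin-treated U2AF1(WT) mice 8 and 9 (19.2 and 9.28). Late neutrophil markers were highest of their group in that U2AF1(S34F) mouse 7 (50238 CPM) but lowest in that U2AF1(WT) mouse 2 (29587). Erythroid marker sums likewise fell as Ψ rose within the vehicle-treated U2AF1(S34F) group, from 917 CPM (mouse 3) to 256 (mouse 7). Mice 8 and 9 had the lowest erythroid sums (266 and 415 CPM) of the sudemycin-treated U2AF1(WT) group. Vehicle-treated U2AF1(WT) mouse 1 had the highest sum (721) and the lowest Ψ (0.323) of its group. The reverse held for sudemycin-treated U2AF1(S34F) mouse 6, lowest of its group in both (349 and 0.484). Ψ thus did not run with B cell markers alone. The part of marrow composition, or of any 1 cell type, in Ψ was not tested.

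The group means of the 2 isoforms differed in opposite directions. Inclusion reads, in CPM of junction reads, averaged 4.51 ± 0.424 (SD, n = 5) in U2AF1(WT) mice on vehicle and 5.35 ± 0.765 in those on the drug. The U2AF1(S34F) averages were 5.15 ± 0.499 and 5.53 ± 0.397. Skipping reads on the same scale averaged 7.54 ± 1.35, 6.39 ± 1.42, 6.31 ± 1.15 and 5.06 ± 0.225 in the same order. The mean ratio of mutation and drug together to vehicle-treated U2AF1(WT) was 1.23 for inclusion and 0.671 for skipping. On either isoform alone the groups overlapped in every comparison, while their ratio separated the drug groups.

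**Figure D2:**
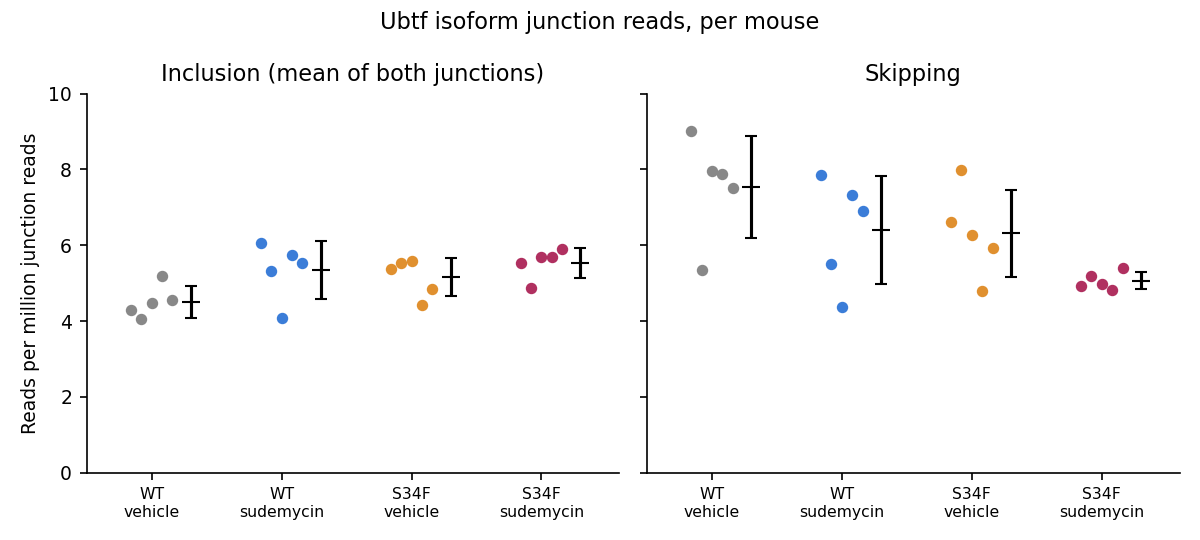
Inclusion (left) and skipping (right) reads of the *Ubtf* exon in CPM of junction reads (y axes) in the 4 groups; points are mice and bars are mean ± SD of 5. Inclusion means run from 4.51 to 5.53, and skipping means from 7.54 to 5.06.

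The rest of the *Ubtf* transcript was spliced almost as annotated: 99.9% of its 174140 junction reads lay on 26 annotated junctions, 7 junctions joined annotated sites in a new pair, and 16 had 1 annotated end. A second exon with skipping reads, chr11:102175453-102175536, was almost always included, with mean Ψ of 0.986 ± 0.0202, 0.977 ± 0.0159, 0.988 ± 0.00828 and 0.983 ± 0.0111 (SD, n = 5) in the 4 groups in the order above. Elsewhere in the gene, an alternative 5′ splice site at chr11:102168397, 4 bases from the main one at 102168393, took a mean share of 0.00517 to 0.0123.

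Scaled to all junction reads, 2 of 3 first exons of *Ubtf* had fewer reads in U2AF1(S34F) than in U2AF1(WT) mice without overlap. For the rarest of them, the separation under vehicle came only from that scaling. These exons were described after their values were seen and were not tested. The first exon that ends at chr11:102178896 had 2.54, 2.08, 3.61, 6.04 and 2.80 CPM of junction reads in vehicle-treated U2AF1(WT) mice and 1.68, 1.67, 1.36, 0.802 and 1.66 in vehicle-treated U2AF1(S34F) mice, which do not overlap. Under sudemycin D6 the means were 3.50 and 1.47 CPM, again without overlap. For the first exon at chr11:102180162 the means were 3.02 and 1.93 under vehicle and 2.77 and 1.90 under sudemycin D6, with overlapping mice. The first exon at chr11:102180638 had the fewest reads, 223 over the 20 mice. Under vehicle its CPM of junction reads was 0.363, 0.146, 0.436, 0.304 and 0.215 in the U2AF1(WT) group against 0.140, 0.0352, 0.141, 0 and 0.117 in the U2AF1(S34F) group, and the nearest pair lay at 0.146 and 0.141. The mice of this pair had 54774504 and 56670459 junction reads in all. Their gap comes from these totals and not from more reads on this exon. Under sudemycin D6 it ranged from 0.280 to 0.547 and from 0.0503 to 0.174. Groups did not overlap for 19.5% of all genes between genotypes under vehicle, and the share over all junctions is not given here. As a share of the reads of the 3 first exons, each overlapped in every comparison. Mean shares under vehicle were 0.501, 0.454 and 0.0457 in U2AF1(WT) and 0.429, 0.547 and 0.0244 in U2AF1(S34F) mice, in the order above. The junction after the exon they join took a like share of annotated *Ubtf* junction reads in every group, 5.21%, 5.51%, 5.18% and 4.97%.

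At the gene level, CPM of gene reads after TMM scaling ranged from 98.8 to 145 for *Ubtf*. In vehicle-treated U2AF1(WT) mice the *Ubtf* CPM was 130, 115, 121, 145 and 117. In sudemycin-treated U2AF1(WT) mice it was 126, 113, 101, 124 and 130. In vehicle-treated U2AF1(S34F) mice it was 111, 118, 113, 99.96 and 105, and with sudemycin D6 108, 98.8, 104, 111 and 108. The fitted log2 fold change was −0.22 ± 0.083 (SE) between genotypes under vehicle, −0.20 ± 0.077 under sudemycin D6 and −0.26 ± 0.076 for mutation and drug together, and only the last pair of groups did not overlap. For the drug it was −0.08 ± 0.097 in U2AF1(WT) and −0.06 ± 0.059 in U2AF1(S34F) mice. In bulk marrow, fewer cells that make a transcript and less of it per cell cannot be told apart.

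Levels were divided by exon length, counted as all bases that lie in an exon of any annotated transcript of the gene. This length was 8257 bases for *Ncl* and 1161 for *Fbl*. It can exceed that of the main transcript, so the order of the genes depends on it. On this scale *Ncl* (27.9 ± 5.05 CPM per kb, SD over 20 mice) and *Fbl* (26.1 ± 5.10) had the highest levels and did not differ beyond their spread. *Ubtf* (17.5 ± 1.81), *Polr1a* (17.4 ± 3.97), *Nop58* (17.0 ± 4.82) and *Nop56* (16.9 ± 3.12) followed with pooled means within their spread of each other, then *Nolc1* (11.4 ± 2.36) and *Rrn3* (9.37 ± 1.80), and *Polr1b* was lowest (3.53 ± 0.718). This order holds for the pooled mice, and single groups departed from it. In vehicle-treated U2AF1(WT) mice *Polr1a* (21.1 ± 2.86 CPM per kb, SD, n = 5) stood above *Nop58* (14.2 ± 1.11). In sudemycin-treated U2AF1(S34F) mice *Polr1a* (12.9 ± 0.771) was level with *Nolc1* (12.6 ± 1.69) and below *Ubtf* (16.2 ± 0.743) and *Nop58* (19.5 ± 3.58). *Ubtf* varied least, with a coefficient of variation of 10.3% over the 20 mice, and *Nop58* most, at 28.3%.

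**Figure D3:**
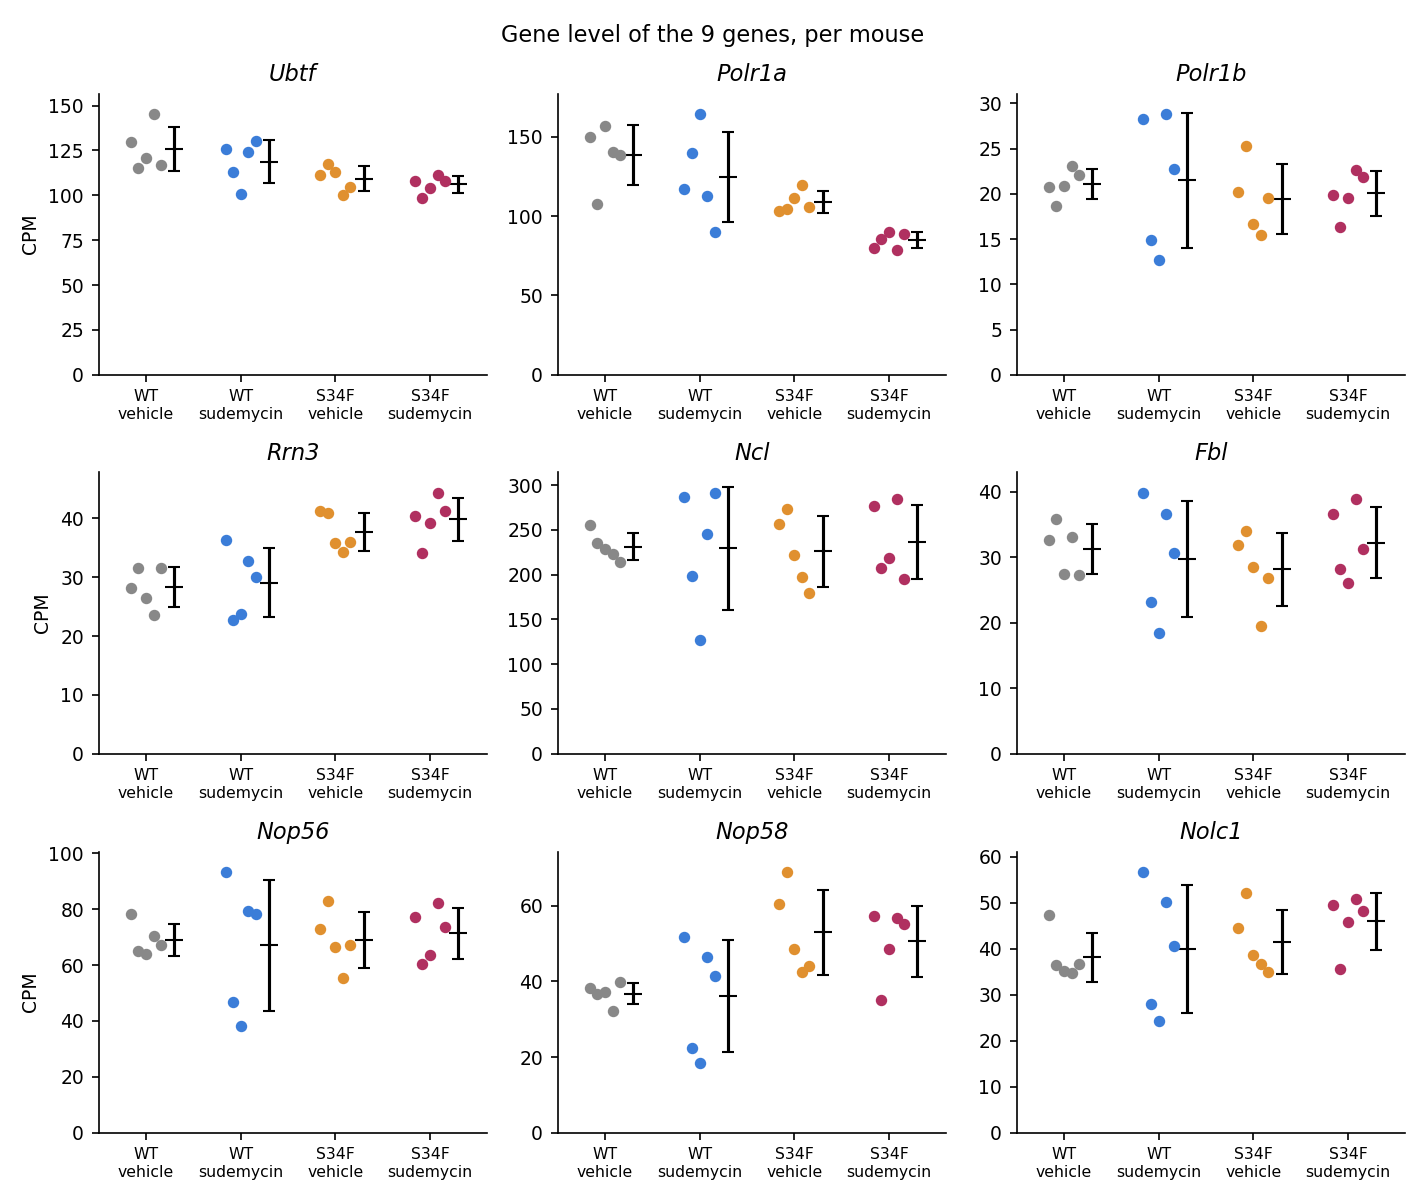
CPM of the 9 genes (y axes, from 0) in each mouse of the 4 groups (x axes); bars are mean ± SD of 5. *Polr1a* is lowest in sudemycin-treated U2AF1(S34F) mice (78.8 to 90.3), *Rrn3* is higher in both U2AF1(S34F) groups, and sudemycin-treated U2AF1(WT) mice spread widely for the nucleolar genes.

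*Polr1a* was lower under sudemycin D6 in U2AF1(S34F) mice, and none of the 9 genes passed the test in U2AF1(WT) mice. *Polr1a*, the catalytic large subunit (chr6:71859047-71929350), had 103, 105, 111, 120 and 106 CPM in vehicle-treated and 80.2, 85.9, 90.3, 78.8 and 88.6 CPM in sudemycin-treated U2AF1(S34F) mice, without overlap. Its log2 fold change was −0.38 ± 0.062 (SE; adjusted p = 0.00621, edgeR's quasi-likelihood test with Benjamini-Hochberg adjustment over all genes), and it was the only one of 9 genes called at an FDR of 10%, beside 10.8% of the 14714 genes tested. Groups did not overlap for 7.41% of them. In U2AF1(WT) mice it had 150, 108, 157, 140 and 139 CPM with vehicle and 117, 140, 164, 113 and 90.1 with sudemycin D6, which overlap (log2 fold change −0.16 ± 0.15, adjusted p = 0.722). Here 0 of 9 genes were called by edgeR and 0 had an unadjusted p under 0.05, beside 3.07% of 14763 genes called. The drug effects of the 2 genotypes were not shown to differ: the interaction for *Polr1a* was −0.24 ± 0.17 (adjusted p = 0.819), 0 of 9 genes were called for it by edgeR, and 0.013% of 15392 genes were. When all 20 mice shared 1 model, the adjusted p of the *Polr1a* change in U2AF1(S34F) mice was 0.115.

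Apart from *Ubtf* and *Polr1a*, the log2 fold changes under the drug lay between −0.08 and 0.18 in U2AF1(S34F) mice and between −0.07 and 0.06 in U2AF1(WT) mice. In sudemycin-treated U2AF1(WT) mice, mice 8 and 9 stood apart. Each of 8 of the 9 genes was lowest in this pair of the 5, and *Polr1a* was highest in it. *Nop56*, a core protein of box C/D snoRNPs, had 93.2, 46.8, 38.1, 79.2 and 78.3 CPM in mice 6, 8, 9, 10 and 12. The summed level of 6 late neutrophil markers was 45560 and 46403 CPM in mice 8 and 9 against 28152 to 33117 in the other 3, and they had the low pro-B and pre-B marker sums given above. With both mice left out, 0 of the 9 genes were called, and *Nop58* moved from a log2 fold change of −0.03 to 0.35 (adjusted p = 0.111). The part of the marrow composition in these values was not tested.

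Between genotypes under vehicle, *Rrn3* and *Nop58* were higher and *Polr1a* was lower in U2AF1(S34F) mice. *Rrn3*, the initiation factor that couples growth signals to the polymerase (chr16:13780792-13814933), had 28.2, 31.5, 26.5, 23.6 and 31.6 CPM in U2AF1(WT) and 41.3, 40.8, 35.9, 34.3 and 36.0 CPM in U2AF1(S34F) mice, without overlap (log2 fold change 0.40 ± 0.092, adjusted p = 0.00614, edgeR). *Nop58*, the partner of NOP56 in box C/D snoRNPs (chr1:59741853-59768968), had 38.2, 36.6, 37.3, 32.1 and 39.8 CPM against 60.6, 68.8, 48.6, 42.6 and 44.0, also without overlap (0.51 ± 0.13, adjusted p = 0.00871, edgeR). *Polr1a* fell by 0.37 ± 0.099 on the log2 scale (adjusted p = 0.0140, edgeR), with 1 U2AF1(WT) mouse at 108 CPM among the U2AF1(S34F) values. With *Ubtf*, 4 of 9 genes were called, beside 39.5% of 14817 genes, a share close to the background. Groups did not overlap for 19.5% of all genes.

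Under sudemycin D6 the same comparison gave 3 of 9 genes, *Ubtf* included, beside 36.8% of 14677 genes. *Polr1a* fell by 0.59 ± 0.13 (adjusted p = 0.00716, edgeR) and *Rrn3* rose by 0.41 ± 0.12 (adjusted p = 0.0280, edgeR). *Rrn3* ranged from 22.8 to 36.3 CPM in U2AF1(WT) and from 34.1 to 44.3 in U2AF1(S34F) mice, which overlap. *Nop58* ranged from 18.5 to 51.8 and from 35.2 to 57.2 CPM and had a log2 fold change of 0.45 ± 0.26 that missed the threshold (adjusted p = 0.222, edgeR). Without mice 8 and 9 of the U2AF1(WT) group, 5 of 9 genes were called: *Polr1b*, the second-largest subunit, had a log2 fold change of −0.42 (adjusted p = 0.0103) and *Nop56* of −0.25 (adjusted p = 0.0740), both by edgeR, where with all mice the values were −0.14 and 0.05.

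For mutation and drug together, set against vehicle-treated U2AF1(WT) mice, 5 of 9 genes were called, *Ubtf* included, beside 50.2% of 14761 genes. *Polr1a* fell by 0.73 ± 0.097 (adjusted p = 0.000119, edgeR), from a mean of 139 to 84.8 CPM without overlap, as for 23.7% of all genes. *Rrn3* rose by 0.48 ± 0.091 (adjusted p = 0.00125), *Nop58* by 0.44 ± 0.12 (adjusted p = 0.00829) and *Nolc1*, a nucleolar chaperone of snoRNPs, by 0.25 ± 0.11 (adjusted p = 0.0753), all by edgeR. The *Nolc1* call was lost when any 1 of 8 of the 10 mice was left out (adjusted p from 0.108 to 0.158, edgeR), the exceptions being vehicle-treated mouse 1 and sudemycin-treated mouse 6. *Ncl* (nucleolin), *Fbl* (fibrillarin, the box C/D methyltransferase), *Nop56* and *Polr1b* were called in none of the 5 comparisons with all mice, and their log2 fold changes lay between −0.17 and 0.18. *Ncl*, a major nucleolar protein, ranged from 214 to 255 CPM in vehicle-treated and from 127 to 291 in sudemycin-treated U2AF1(WT) mice, and from 179 to 273 and 195 to 284 in U2AF1(S34F) mice. *Fbl* ranged from 27.3 to 35.9, 18.5 to 39.8, 19.5 to 33.98 and 26.1 to 39.0 CPM in the same order, and *Polr1b* from 18.7 to 23.1, 12.7 to 28.8, 15.4 to 25.3 and 16.3 to 22.7. The widest range of each was in sudemycin-treated U2AF1(WT) mice. These 5 comparisons share groups and are not independent of each other.

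**Figure D4:**
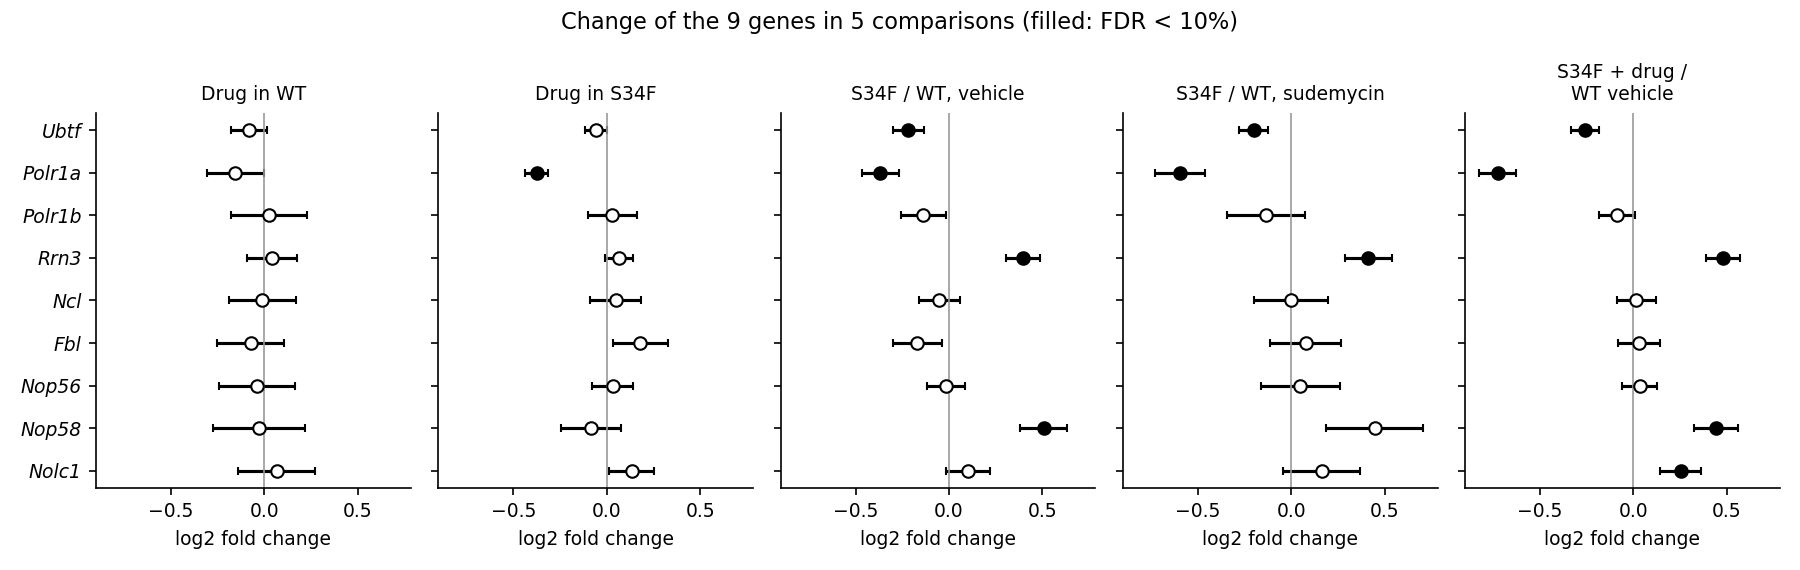
log2 fold change (x axes) of the 9 genes (rows) in 5 comparisons; bars are the SE and filled points passed an FDR of 10%. *Polr1a* is at −0.37 or lower in 4 panels, *Rrn3* and *Nop58* lie to the right in the 3 that compare genotypes, and no point is filled for the drug in U2AF1(WT) mice.

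The other genes of the pathway were taken from 6 lists of 148 genes in all. In U2AF1(S34F) mice under sudemycin D6, 5 of 148 were higher and 1 was lower, beside 4.94% and 5.85% of all genes, and in U2AF1(WT) mice 0 were called by edgeR (8 with an unadjusted p under 0.05; 1 called by DESeq2). Between genotypes under vehicle, 41 were higher and 16 lower, beside 19.7% of all genes higher and 19.8% lower. For mutation and drug together 71 were higher and 11 lower, beside 25.1% and 25.1%, with a median log2 fold change of 0.18 over the lists.

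Among 17 further subunits and initiation or termination factors of RNA polymerase I, 8 were higher and 1 was lower between genotypes under vehicle. Of all genes, 19.7% were higher and 19.8% lower in this comparison. *Polr2k*, a small subunit shared by the nuclear polymerases, rose from 5.59 ± 1.11 to 8.94 ± 0.915 CPM (SD, n = 5; log2 fold change 0.66, adjusted p = 0.00343, edgeR). *Ptrf*, which is known both as a polymerase I release factor and as the caveolar protein cavin-1, fell under the drug in U2AF1(S34F) mice from 3.65 ± 0.908 to 2.12 ± 0.605 CPM (log2 fold change −0.79, adjusted p = 0.0567, edgeR). Of 12 regulators of rDNA, 6 were lower and 3 higher between genotypes under vehicle, beside the same 19.8% and 19.7% of all genes. *Baz2a*, the large subunit of the complex that silences rDNA repeats, fell from 273 ± 37.2 to 182 ± 30.7 CPM (−0.60, adjusted p = 0.00354, edgeR).

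The counts under vehicle that follow stand beside the 19.7% of all genes called higher and 19.8% called lower. Of 14 genes for snoRNP proteins and their assembly, 2 were higher and 0 lower by edgeR, 14.3% of the list and so under the share of all genes, with *Nop10* of the box H/ACA snoRNPs rising from 19.3 ± 2.82 to 25.8 ± 4.02 CPM (0.40, adjusted p = 0.0233, edgeR). Of 48 genes of the small subunit processome, 16 were higher and 3 lower, and for mutation and drug together 29 and 2, beside 25.1% of all genes in each direction. *Mphosph10* of the processome rose from 33.8 ± 3.41 to 51.8 ± 7.52 CPM under vehicle (0.60, adjusted p = 0.00102, edgeR). Of 48 genes of large subunit maturation, 11 were higher and 5 lower under vehicle, with *Rpf1* rising from 17.2 ± 3.19 to 26.9 ± 0.847 CPM (0.63, adjusted p = 0.00129, edgeR). All 5 genes called higher under the drug in U2AF1(S34F) mice were in this list, led by *Pelp1* (17.3 ± 1.79 to 21.2 ± 2.40 CPM, 0.27, adjusted p = 0.0835, edgeR). Of 9 abundant nucleolar proteins, 1 was higher and 1 lower, *Tcof1* (treacle, which works with UBTF at rDNA) falling from 53.7 ± 6.51 to 35.4 ± 7.02 CPM (−0.62, adjusted p = 0.00406, edgeR).

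**Figure D5:**
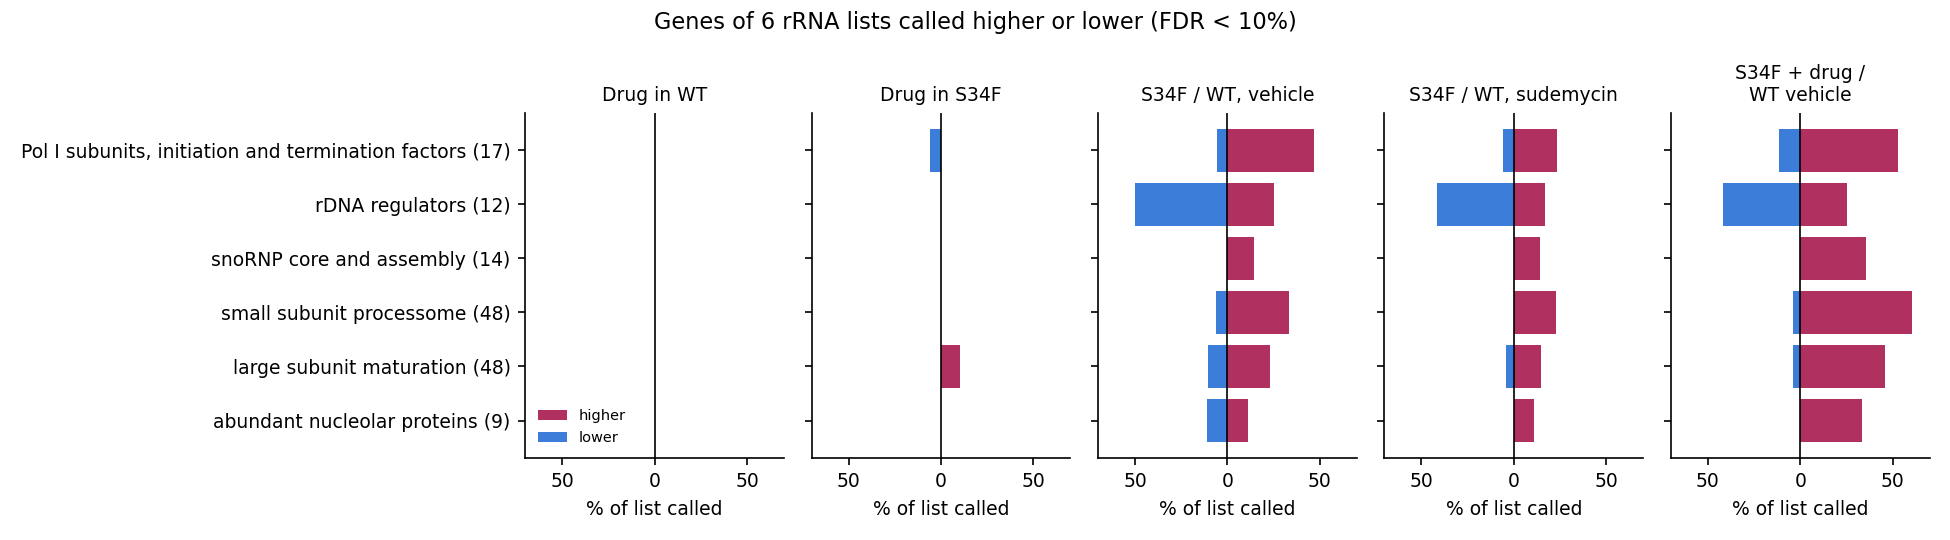
Share of each of 6 lists (rows, genes tested in parentheses) called higher (red, to the right) or lower (blue, to the left) at an FDR of 10% in 5 comparisons; the x axes give percent of the list. The panel for the drug in U2AF1(WT) mice is empty, and rDNA regulators are the list with more lower than higher calls in the 3 panels that compare genotypes (6 against 3 under vehicle). Under vehicle 19.8% of all genes were lower and 19.7% higher.

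Of 21 cell cycle genes, 10 were higher between genotypes under vehicle, 18 under sudemycin D6 and 21 for mutation and drug together, beside 19.7%, 17.2% and 25.1% of all genes. For the drug in U2AF1(S34F) mice 4 of 21 were higher, beside 4.94% of all genes. In U2AF1(WT) mice 0 were called by edgeR, with 1 at an unadjusted p under 0.05, and 0 were lower in any of the 5 comparisons. Their summed level was 3504 to 5710 CPM in vehicle-treated U2AF1(WT), 3750 to 4621 in sudemycin-treated U2AF1(WT), 5135 to 6053 in vehicle-treated U2AF1(S34F) and 5252 to 6142 in sudemycin-treated U2AF1(S34F) mice. Of 8 pro-B and pre-B markers, the drug comparison gave 3 lower with U2AF1(WT) and 4 lower with U2AF1(S34F), beside 1.89% and 5.85% of all genes. Between genotypes, 0 were lower under vehicle by edgeR, where 0 had an unadjusted p under 0.05, and 3 under sudemycin D6, beside 19.8% and 19.6%. For mutation and drug together 8 of 8 were lower, beside 25.1%, with summed levels of 27.4 to 66.5 CPM in vehicle-treated U2AF1(WT) and 13.1 to 23.0 in sudemycin-treated U2AF1(S34F) mice. The part of either in the rRNA genes was not tested.

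Over 9771 genes with a mean of at least 5 CPM and 20 mice, the log2 levels most like those of *Ubtf* were of *Faah* (Pearson's r = 0.926), *Klhl21* (0.921), *Npepl1* (0.915), *Ahdc1* (0.915) and *Cd74* (0.912). Those most like the mean of *Ncl*, *Fbl*, *Nop56*, *Nop58* and *Nolc1* were of *Eif2b3* (0.964), *Ddx21* (0.963), *Tsr1* (0.960), *Utp20* (0.959) and *Atic* (0.954). *Polr1b* followed the same mean (0.835), while *Polr1a* ran against it (−0.556), also with group means removed (−0.669). These values describe the 20 mice, which share groups and marrow composition.

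Splicing of the other 8 genes gave no call. They had 51 different testable events, none of them in *Fbl*. Between 36 and 41 were tested in a comparison, and 0 passed an FDR of 10% with |ΔΨ| over 1% in any of the 5 by edgeR or by limma on Ψ. Many events had Ψ near 1 in both groups and so had little room to be called. In *Nop58* and *Ncl* the largest |ΔΨ| of any comparison was 0.00861 and 0.00459, under the limit. Unadjusted p-values were under 0.05 for 1, 1, 4, 1 and 4 events by edgeR, for the drug in U2AF1(WT), the drug in U2AF1(S34F), the genotypes under vehicle and under sudemycin D6, and both together. By limma they were so for 0, 0, 3, 1 and 1. Of all events, 0.653%, 1.22%, 2.26%, 2.98% and 4.54% were called. One event was chosen after its values were seen. In *Nop56*, joining the exon that starts at chr2:130103212 from a 5′ splice site at 130103050 in place of 130102868 had mean Ψ of 0.203 ± 0.0643 in U2AF1(WT) and 0.304 ± 0.0525 in U2AF1(S34F) mice under vehicle (SD, n = 5; adjusted p = 0.120, edgeR), and it was called when U2AF1(WT) mouse 2, U2AF1(S34F) mouse 3 or U2AF1(S34F) mouse 7 was left out. *Nop56* shares exon bases with *Idh3b* on the opposite strand.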

How the data were processed

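The authors sequenced stranded total RNA depleted of rRNA and aligned the reads with TopHat2 2.0.8 to mm9 (NCBI build 37). They deposited unnormalised counts of reads on genes and on splice junctions, and the program that counted genes is not given in the sources used here. A deposited flag of skipped exons was not used.

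The gene test was a robust quasi-likelihood fit of edgeR 4.0.16 (R 4.3.3) after filterByExpr and TMM, each comparison on its own 10 mice and the interaction on all 20, with a prior count of 2 and an FDR of 10% over all genes. The SE was taken from the fold change and F. Splicing events averaging 10 or more reads a mouse, built from annotated junction ends and exons, were tested in edgeR with a coefficient per mouse and dispersion 0. Events called also had |ΔΨ| over 1%. Events were built from junctions with both ends annotated, a choice made after their numbers were seen. Both steps were tested on simulated data. DESeq2 1.42.0, limma 3.58.1 on Ψ, the replicate block, other filters, fits without 1 mouse in turn and a single fit to all 20 were alternatives. Leaving out mice 8 and 9, and counting events with at least 1 read of the rarer isoform, were alternatives chosen after seeing the data.

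The 9 genes, the lists and the tests were chosen with earlier results of these data known. Named genes were the 9, per list the called gene with the largest change in the drug comparisons and the genotypes under vehicle, and the 5 genes most like each pattern. Of the list genes, 5 symbols did not match the annotation. The mice of a group were separate recipients of pooled marrow, so p-values measure the spread between recipients. By the study's methods, each donor pool went into several recipients of a genotype, and the number of pools is not given. The p-values that compare genotypes, alone or with the drug, therefore do not measure the spread between donors. Sequences were read from the same build, where 151 of 151 annotated junctions of these genes marked GT-AG read so.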

Additional observations from a re-analysis of the deposited data

Results flagged for a closer look

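*Nolc1* in vehicle-treated U2AF1(WT) mice had 1 mouse far from the others: mouse 1 had 47.4 CPM, against 34.8 to 36.8 CPM in the other 4. The gap between this mouse and the next took 0.842 of the range of the group, above the 95% critical value of Dixon's test for 5 values. It was the only one of 48 groups of values examined that passed this limit, and chance alone passes it in about 1 of 20 groups. The *Nolc1* change for mutation and drug together had an adjusted p of 0.0753 with this mouse (edgeR's quasi-likelihood test).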

How the results depend on the processing

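The drug and genotype differences in *Ubtf* Ψ kept their direction under every way of counting the junction reads tried, without each mouse in turn and without mice 8 and 9. The separation of the drug groups did not hold under every way of counting. They overlapped by the downstream junction alone in U2AF1(WT) mice and by the upstream junction alone in U2AF1(S34F) mice. Of 45 pairs of a gene and a comparison, 13 were called and 0 of these changed sign under an alternative, while 22 of the 32 that were not called did. With all 20 mice in 1 model, 0 of the 9 genes were called for the drug in U2AF1(S34F) mice and 3 for mutation and drug together. For the 6 lists, the calls for the drug in U2AF1(WT) mice were 1 by DESeq2, 6 in 1 model and 12 without mice 8 and 9, and 0 to 3 without 1 mouse (3 without vehicle-treated mouse 2). In U2AF1(S34F) mice they were 10 by DESeq2, 3 with no filter on low counts, 2 in 1 model, 1 at an FDR of 5%, and 1 to 8 without 1 mouse (1 to 3 without vehicle-treated mouse 1 or 11 or sudemycin-treated mouse 2, 9, 10 or 12). Without mice 8 and 9, the genotypes under sudemycin D6 gave 5 of the 9 genes and 56 of the lists, and the log2 fold change of *Nop56* turned to −0.25. In U2AF1(WT) mice under the drug, *Ubtf* turned to 0.0225 and *Nop58* to 0.35. Without 1 mouse, *Nop58* there ranged from −0.19 to 0.14, and *Nop56* between genotypes under sudemycin D6 from −0.0824 to 0.20. Splicing calls of the other 8 genes ranged from 0 to 1 without 1 mouse, both between genotypes under vehicle and for mutation and drug together (1 without vehicle-treated U2AF1(WT) mouse 5). The causes were not tested.

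Replicate numbers shared by the genotypes did not pair the mice (correlations of −0.0483 to 0.134 under vehicle and −0.111 to 0.21 under sudemycin D6). With the replicate block, the lists gave 22 calls between genotypes under sudemycin D6 in place of 35, and *Nop56* there was −0.0108. The *Ubtf* gene level was then at −0.13 under vehicle and −0.21 under sudemycin D6, and it was left out of the count of genes called in both. *Ubtf* also dropped out of these counts in both with no filter on low counts. The same held under vehicle without U2AF1(WT) mouse 1 or 4 or U2AF1(S34F) mouse 7 or 11, and under sudemycin D6 without any 1 of 7 of the 10 mice. *Polr1b* was called under vehicle without U2AF1(S34F) mouse 3 (adjusted p = 0.0934, edgeR). No paired analysis was possible for the drug comparisons or for mutation and drug together because their groups share fewer than 2 numbers.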
